A study of Homo sapiens with 4 samples.

Results

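Arf proteins are small GTPases that recruit coat proteins and lipid-modifying enzymes to membranes when they carry GTP, and so direct vesicle traffic at the Golgi, at endosomes and at the plasma membrane. Guanine nucleotide exchange factors (GEFs) load them with GTP through a shared Sec7 domain, and GTPase-activating proteins (GAPs) end the signal through a zinc-finger ArfGAP domain. In lymphocytes, these regulators are known for their parts in integrin recycling, receptor uptake and cell movement. The genes described here were the rows of the deposited gene table whose symbol belonged to the ARFGEF, GBF1, CYTH, IQSEC and PSD families of GEFs or to the ARFGAP, AGFG, SMAP, GIT, ADAP, ACAP, ASAP, ARAP and AGAP families of GAPs, whatever their level. This gave 43 of 41507 genes, of which 14 coded for GEFs and 29 for GAPs, and 219 of 67765 rows of the transcript table.

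RNA was sequenced from SU-DHL-5 and Toledo, established cell lines of diffuse large B-cell lymphoma (DLBCL) that the labels give as B lymphocytes. Cells of each line received either DMSO, the vehicle, or JQ1 at 1 µM (1 sample each), for 6 h by the labels of the samples, while the study's own text gives a different time. JQ1 keeps BET bromodomain proteins off acetylated chromatin, and the comparison asks which genes of GTPase regulators differ after it. Both lines are cultured tumor cells, and no normal B cell is among the samples. Each sample has 2 libraries in the tables, whose mean is used as a single replicate (n = 1 for each condition). What separates the libraries of a sample is not given in the sources used here, so their spread may be that of separate cultures or only technical. Differences therefore have no check by replicates and carry no p-value, and the value in every library is set beside them.

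Levels are RPKM, the reads on a gene scaled to its length and to how many reads the library had mapped, so that they can be compared between genes. Mapped reads ranged from 14617583 to 17679831 per library, and the 43 genes of Arf regulators held from 19439 to 22585 of them. All 8 B cell markers reached 1 RPKM in both lines, and their summed level lay between 902 and 1017 RPKM with DMSO and between 646 and 655 RPKM with JQ1 in SU-DHL-5. In Toledo they lay between 920.3 and 978 RPKM and between 623 and 641 RPKM. Single B cell markers did not all follow the sum: CD79B and EBF1 overlapped between treatments in SU-DHL-5, and PAX5 did in Toledo. The 4 germinal center B cell markers summed to 122 to 130.3 RPKM against 94.5 to 98.1 RPKM with JQ1 in SU-DHL-5, and to 31.9 to 37.4 RPKM against 20.5 to 22.1 RPKM in Toledo. In SU-DHL-5, MME and SERPINA9 were lower with JQ1. There BCL6 (38.0 and 38.3 RPKM against 46.3 and 47.3 RPKM) and MYBL1 (13.5 and 14.9 RPKM against 17.3 and 17.0 RPKM) were higher. In Toledo only 3 of the 4 reached 1 RPKM. MME, at 28.4 and 33.5 RPKM with DMSO, made up most of the sum, and SERPINA9 was at 0 with DMSO. The 3 epithelial markers EPCAM, KRT18 and KRT8 were listed at 0 in all 8 libraries, and none of the 6 T and NK cell markers or of the 5 myeloid markers had a line mean of 1 RPKM. Even so, the SU-DHL-5 sums of these 2 lists were lower with JQ1, at 1.14 to 1.46 RPKM against 0.0452 to 0.1202 RPKM for T and NK cells, with CD2, CD3D and CD8A at 0, and at 1.25 to 1.29 RPKM against 0.192 to 0.339 RPKM for myeloid cells, with FCGR3A and MPO at 0. Of the 3 fibroblast markers, only DCN in SU-DHL-5 and only COL1A1 in Toledo reached 1 RPKM, and the summed level of the list lay between 5.14 and 5.72 RPKM with DMSO and between 0.616 and 0.773 RPKM with JQ1 in SU-DHL-5, and between 2.29 and 2.72 RPKM and between 0.251 and 0.397 RPKM in Toledo. HEXIM1, a gene commonly read as a marker of BET inhibition, stood at 4.35 and 3.89 RPKM with DMSO and at 22.4 and 22.9 RPKM with JQ1 in SU-DHL-5, and at 4.04 and 3.94 RPKM and 23.9 and 24.5 RPKM in Toledo. MYC, a known target of BET proteins, had 44.1 and 40.9 RPKM against 35.2 and 34.4 RPKM in SU-DHL-5, and in Toledo its libraries overlapped, with 40.4 and 44.4 RPKM against 44.6 and 42.1 RPKM. In the DMSO sample of Toledo, long genes were higher in library 2 than in library 1 (Spearman's rho of 0.65 between the log2 ratio of the libraries and gene length across 8881 genes, which are not independent replicates, against -0.31 to -0.07 in the other 3 samples). Where a long gene is described below, its Toledo values are in most cases given per library for that reason.

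With a mean of DMSO and JQ1 of at least 1 RPKM as the limit for an expressed gene, 25 of the 43 genes were expressed in each line and 22 of them in both. SU-DHL-5 expressed 7 of 14 GEFs and 18 of 29 GAPs, and Toledo 8 and 17 of them. The GEF of highest level with DMSO in SU-DHL-5 was GBF1 at 14.3 RPKM, ahead of PSD4 at 9.74 RPKM and ARFGEF1 at 7.91 RPKM. In Toledo, CYTH1 at 11.3 RPKM, GBF1 at 11.1 RPKM and CYTH2 at 10.6 RPKM led the GEFs, and the library values of GBF1 overlapped those of both neighbors. SMAP2 led the GAPs of SU-DHL-5 with 45.2 RPKM, followed by ARFGAP3 at 28.9 RPKM and ARFGAP2 at 28.4 RPKM, whose library values overlapped. ARFGAP2 led in Toledo with 38.3 RPKM, followed by GIT1 at 28.9 RPKM and SMAP2 at 21.8 RPKM. The first 3 genes of a class made up 59.2% (SU-DHL-5) and 50.8% (Toledo) of the summed level of GEFs, and 47.2% and 52.0% of that of GAPs.

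**Figure D1:**
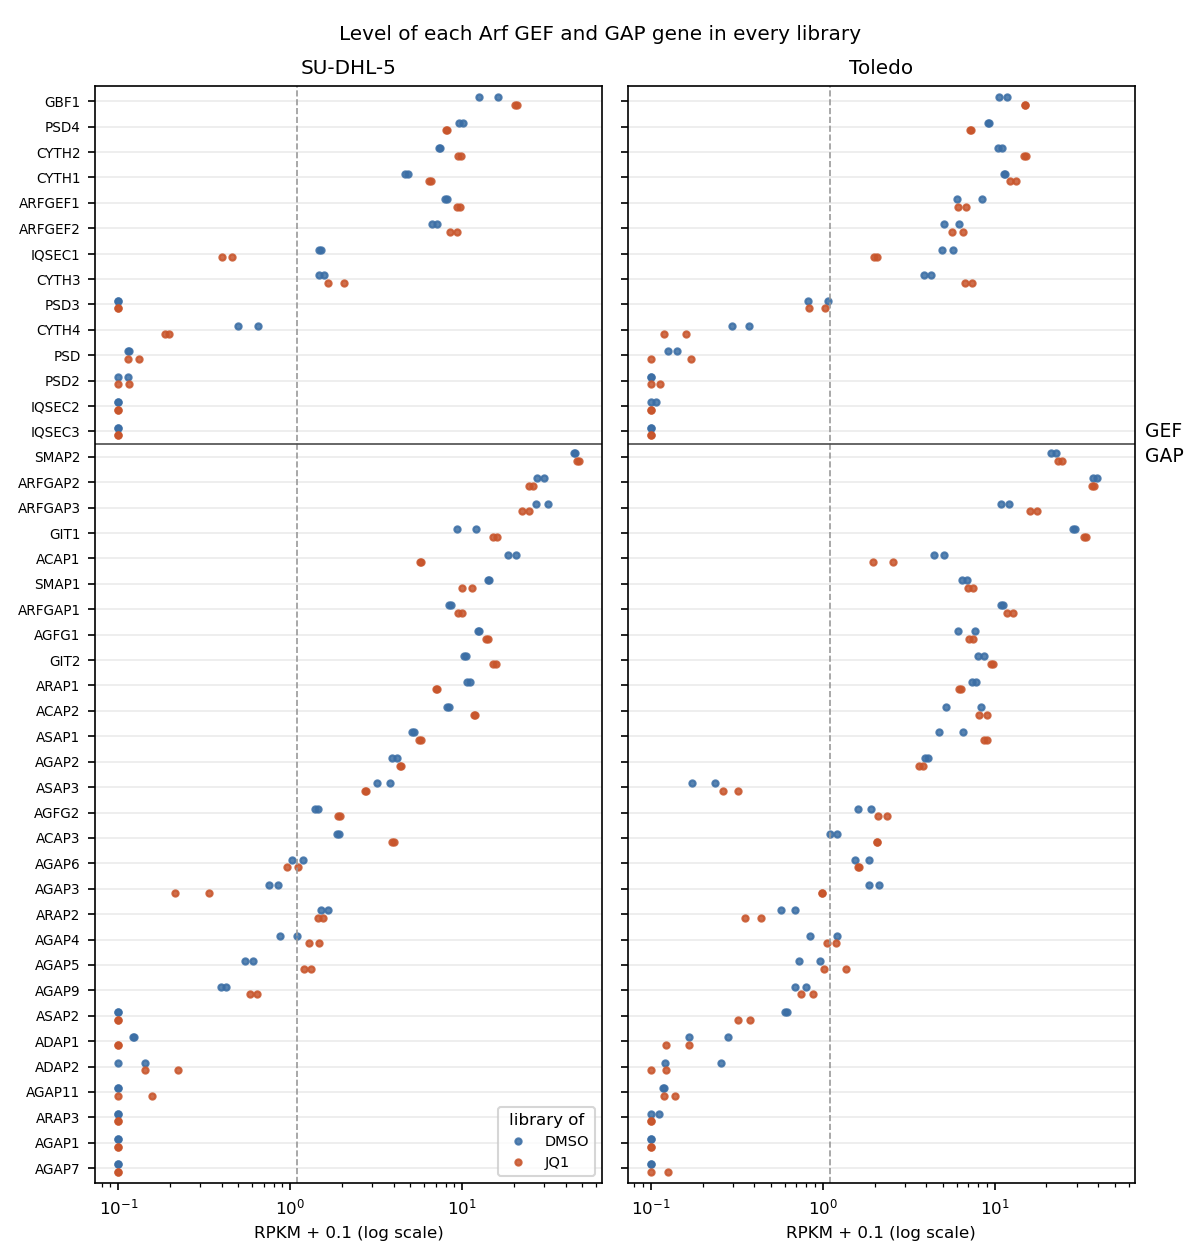
RPKM + 0.1 on a log axis for each of the 43 genes, with 1 point for each library, DMSO in blue and JQ1 in orange, GEFs above the solid line and GAPs below it, each ordered by their mean level with DMSO over both lines. The dashed line marks 1 RPKM. ACAP1, IQSEC1, AGAP3 and CYTH4 stand out by JQ1 points to the left of the DMSO points in both lines.

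At the low end, IQSEC3 and AGAP1 were listed at 0 in all 8 libraries. PSD, PSD2, IQSEC2, ADAP1, ADAP2, ARAP3, AGAP7 and AGAP11 had at most 0.183 RPKM in any library, and several of these are known from brain rather than from lymphoid tissue. AGAP4, AGAP5, AGAP6, AGAP7, AGAP9 and AGAP11 lie on chromosome 10 and are near-identical copies that can share reads, so their values are uncertain. Their line means ranged up to 1.56 RPKM (AGAP6 in Toledo). The ARFGEF3 gene, which the table lists under its older symbol KIAA1244, was not matched by symbol, and its 8 values were 0 in SU-DHL-5 and 0.0570, 0.0744, 0.0248 and 0.0125 RPKM in Toledo.

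Among the large GEFs of the Golgi, JQ1-treated cells had more RNA of GBF1, which acts on Arf at the early Golgi and is a target of brefeldin A. GBF1 (chr10:102245498-102382899 on GRCh38) stood at 16.2 and 12.4 RPKM in the DMSO libraries of SU-DHL-5 and at 20.1 and 20.6 RPKM in the JQ1 libraries, and at 10.5 and 11.6 RPKM and 14.8 and 14.9 RPKM in Toledo. Groups did not overlap in either line, and the log2 JQ1/DMSO ratio of the means, each with 0.1 RPKM added, was 0.51 for SU-DHL-5 and 0.42 for Toledo. The DMSO libraries of SU-DHL-5 themselves differed, and the ratio there was 0.31 from library 1 alone and 0.73 from library 2 alone. For ARFGEF2, a GEF of the trans-Golgi network, the log2 ratio was 0.38 in SU-DHL-5, where the groups did not overlap, and 0.11 in Toledo, where they did (4.97 and 6.10 RPKM against 6.41 and 5.55 RPKM). Its close relative ARFGEF1 was higher with JQ1 in SU-DHL-5 (7.82 and 8.01 RPKM against 9.19 and 9.55 RPKM, log2 ratio 0.24). In Toledo the 4 libraries of ARFGEF1 overlapped, with 5.95 and 8.30 RPKM in DMSO and 6.67 and 5.98 RPKM in JQ1, and the log2 ratio of -0.17 turned to 0.16 with library 1 alone and to -0.47 with library 2 alone.

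Cytohesins are GEFs that bind phosphoinositides at the plasma membrane through a PH domain, and CYTH1 is known for its contact with the leukocyte integrin LFA-1. The 3 expressed cytohesins were higher with JQ1 in both lines without overlap. CYTH1 stood at 4.53 and 4.74 RPKM with DMSO and at 6.32 and 6.46 RPKM with JQ1 in SU-DHL-5 (log2 ratio 0.46), and at 11.3 and 11.4 RPKM and 13.2 and 12.1 RPKM in Toledo (0.16). CYTH2 had 7.24 and 7.30 RPKM against 9.79 and 9.31 RPKM in SU-DHL-5 (0.39), and Toledo had 10.9 and 10.4 RPKM against 14.6 and 15.1 RPKM (0.48). CYTH3 was the expressed GEF of highest ratio in Toledo, with 3.78 and 4.17 RPKM in DMSO and 7.24 and 6.59 RPKM in JQ1 (log2 ratio 0.78), while SU-DHL-5 had 1.37 and 1.46 RPKM and 1.56 and 1.96 RPKM (0.30). CYTH4, the cytohesin known mainly from blood cells, lay the other way at a level under 1 RPKM. It had 48 reads with DMSO and 9 with JQ1 in SU-DHL-5 and 25 and 4 reads in Toledo, and the 95% intervals of its log2 read ratio, which cover counting error only, ran from -3.56 to -1.30 and from -4.56 to -1.04.

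IQSEC1, also called BRAG2, is a GEF for Arf6 that acts in the uptake of integrins and other receptors. This gene (chr3:12897043-13073117) had 4.81 and 5.59 RPKM in the DMSO libraries of Toledo and 1.96 and 1.89 RPKM in its JQ1 libraries, a log2 ratio of -1.39 with a counting interval from -1.58 to -1.27. In SU-DHL-5 it stood at 1.37 and 1.405 RPKM with DMSO and at 0.357 and 0.303 RPKM with JQ1, or 338 against 77 reads, with a log2 ratio of -1.79. The mean of 0.858 RPKM over both treatments kept IQSEC1 below the limit for an expressed gene in SU-DHL-5, so that it is not in the counts of that line. PSD4, a further GEF for Arf6, was the other expressed GEF that was lower with JQ1. PSD4 stood at 9.99 and 9.49 RPKM against 7.91 and 8.08 RPKM in SU-DHL-5 (log2 ratio -0.28) and at 9.02 and 9.12 RPKM against 7.09 and 7.21 RPKM in Toledo (-0.34).

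ACAP1, a GAP for Arf6 that is known from lymphocytes and acts in the recycling of integrin beta 1 and of the transferrin receptor, had the lowest JQ1/DMSO ratio of the expressed GAPs in both lines. ACAP1 (chr17:7336529-7351478) stood at 20.5 and 18.5 RPKM in the DMSO libraries of SU-DHL-5 and at 5.60 and 5.69 RPKM in its JQ1 libraries, which is 3.46-fold lower with a log2 ratio of -1.77 (counting interval -1.94 to -1.63). Toledo cells had 4.999 and 4.31 RPKM with DMSO and 2.45 and 1.85 RPKM with JQ1, 2.17-fold lower with a log2 ratio of -1.08 (-1.38 to -0.86). All JQ1 libraries lay below all DMSO libraries of the same line. The summed levels of the B cell, germinal center B cell and fibroblast markers in both lines, and of the T and NK cell and myeloid markers in SU-DHL-5, given above, were also lower with JQ1, and their part in the ratio of ACAP1 or of the other genes was not tested. Not every marker in these lists was lower. In bulk RNA, fewer cells that express a gene and less of its RNA per cell cannot be told apart.

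The other ACAP genes, also GAPs for Arf6, lay the other way. ACAP3 (chr1:1292384-1307924) was at 1.78 and 1.83 RPKM with DMSO and at 3.81 and 3.91 RPKM with JQ1 in SU-DHL-5, a ratio of 2.14 and a log2 ratio of 1.06 (0.92 to 1.27). In Toledo it was at 1.11 and 1.00 RPKM and at 1.96 and 1.96 RPKM, with a log2 ratio of 0.83 (0.66 to 1.12). ACAP2 stood at 8.08 and 8.27 RPKM against 11.7 and 11.6 RPKM in SU-DHL-5 (0.50). In Toledo the DMSO libraries of this long gene were at 5.12 and 8.22 RPKM, and those of JQ1 at 8.89 and 7.97 RPKM overlapped them. The summed level of the 3 ACAP genes went from 29.5 to 21.1 RPKM in SU-DHL-5, while Toledo had 12.4 and 12.5 RPKM.

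**Figure D2:**
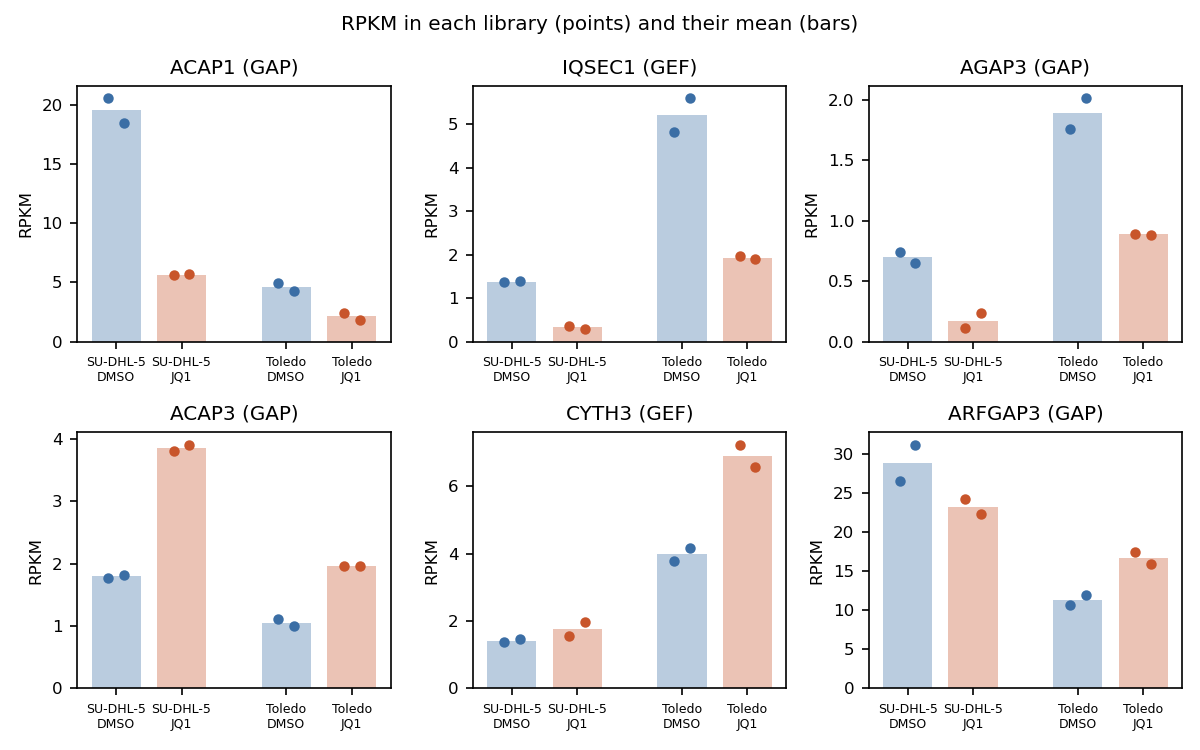
RPKM of 6 genes in each library (points) and their mean (bars), DMSO in blue and JQ1 in orange, with the axis of each panel starting at 0. ACAP1, IQSEC1 and AGAP3 are lower with JQ1 in both lines, ACAP3 and CYTH3 are higher in both, and ARFGAP3 is lower in SU-DHL-5 and higher in Toledo.

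AGAP3, a GAP with a GTPase-like domain of its own, was lower with JQ1 in both lines at a low level. AGAP3 (chr7:151085831-151144436) had 1.76 and 2.01 RPKM in DMSO and 0.889 and 0.885 RPKM in JQ1 in Toledo (log2 ratio -1.01, counting interval -1.36 to -0.82). In SU-DHL-5, where it was not expressed by the limit used, it had 132 reads with DMSO and 31 with JQ1. The level was 3.98-fold lower there, with an interval of the log2 read ratio from -2.63 to -1.45, and the log2 ratio with 0.1 RPKM added, which understates changes at this level, was -1.53. AGAP2, known as PIKE for its link to PI3-kinase, differed little, with 4.06 and 3.80 RPKM against 4.23 and 4.28 RPKM in SU-DHL-5 (0.11) and 3.81 and 3.98 RPKM against 3.53 and 3.72 RPKM in Toledo (-0.10). The counting intervals of AGAP2 included 0 in both lines (-0.02 to 0.25 and -0.24 to 0.04). An antisense gene overlaps AGAP2, and how the counting used strand is not given in the sources used here. ARAP1, which joins an ArfGAP domain to a RhoGAP domain, was lower with JQ1 without overlap in both lines (log2 ratios -0.63 and -0.27). Its means in SU-DHL-5 were 10.8 against 6.96 RPKM. In Toledo it stood at 7.29 and 7.69 RPKM with DMSO and at 6.11 and 6.24 RPKM with JQ1. ARAP2 was expressed only in SU-DHL-5 by the limit used, where its libraries overlapped between treatments (1.48 against 1.404 RPKM).

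GIT1 and GIT2, scaffolds that tie Arf GAP activity to the PIX exchange factors and PAK kinases, were higher with JQ1 in every library of both lines. GIT1 had 11.96 and 9.24 RPKM against 15.9 and 15.1 RPKM (log2 ratio 0.54) in SU-DHL-5, while Toledo had 28.5 and 29.4 RPKM against 32.8 and 33.9 RPKM (0.20). GIT2 had means of 10.3 and 15.3 RPKM in SU-DHL-5 (0.58) while Toledo had 7.92 and 8.55 RPKM against 9.66 and 9.45 RPKM (0.21). ASAP1, a substrate of Src at focal adhesions, had a log2 ratio of 0.14 in SU-DHL-5 and of 0.64 in Toledo, where its DMSO libraries stood at 4.63 and 6.48 RPKM and its JQ1 libraries at 8.90 and 8.51 RPKM. ASAP3 was at 3.71 and 3.09 RPKM against 2.65 and 2.62 RPKM in SU-DHL-5 (-0.35) and had only 15 reads with DMSO and 26 with JQ1 in Toledo. AGFG1 and AGFG2, GAP-like proteins of endocytic traffic, lay at 0.17 and 0.43 on the log2 scale of ratios in SU-DHL-5 and at 0.06 and 0.35 in Toledo, where the libraries of AGFG1 overlapped (6.06 and 7.62 RPKM against 7.36 and 6.96 RPKM).

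The ARFGAP genes code for GAPs that act with the COPI coat at the Golgi, and the SMAP genes for GAPs that bind clathrin. SMAP2, the GAP of highest level in SU-DHL-5, stood at 45.5 and 44.9 RPKM with DMSO and at 47.9 and 46.5 RPKM with JQ1 (log2 ratio 0.06), and in Toledo at 21.2 and 22.5 RPKM and at 24.5 and 23.3 RPKM (0.13). ARFGAP2 had 29.7 and 27.1 RPKM against 24.3 and 25.5 RPKM (-0.19) in SU-DHL-5, and its libraries overlapped in Toledo at 39.2 and 37.4 RPKM and at 36.6 and 37.8 RPKM. ARFGAP1 was higher with JQ1 without overlap in both lines by small amounts (0.20 and 0.15). ARFGAP3 (chr22:42796524-42857402) lay on opposite sides in the lines, with 26.6 and 31.2 RPKM against 24.3 and 22.3 RPKM in SU-DHL-5 (-0.31, counting interval -0.40 to -0.23) and 10.7 and 11.97 RPKM against 17.5 and 16.0 RPKM in Toledo (0.55, 0.45 to 0.68). SMAP1 did so too, with 13.98 and 14.3 RPKM against 9.85 and 11.3 RPKM in SU-DHL-5 (-0.42) and 6.35 and 6.81 RPKM against 6.85 and 7.35 RPKM in Toledo (0.11). The counting interval of SMAP1 ran from -0.53 to -0.32 in SU-DHL-5 and included 0 in Toledo (-0.03 to 0.25). With AGAP2, ARFGAP3 and SMAP1 were the 3 of 22 genes (expressed in both lines) whose libraries lay apart in opposite directions, and 6.92% of all 8495 genes expressed in both lines did so.

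The promoters of 4 genes are shown to set the ones past 2-fold with JQ1 beside GBF1, the leading GEF of SU-DHL-5 that lay higher with JQ1. Each is the stretch of 300 bases from 250 bases before to 50 bases after an annotated start site, 5′ to 3′ along the gene, from the RefSeq table on GRCh38.p14, which held entries for 33 of the 43 genes. Capitals mark matches on either strand to 6 motifs: the E-box CACGTG, the GC box GGGCGG, the CCAAT box CCAAT, the TATA box TATAAA, the ETS core CCGGAAG and the octamer ATGCAAAT. A gene can have other start sites, and the distance from the start site shown to the 5′ end of the deposited transcript of highest level was 312 bases for IQSEC1, 237 for AGAP3, 41 for ACAP3 and 34 for GBF1. The IQSEC1 entry lies at chr3:13073380-13073679 on the minus strand, that of AGAP3 at chr7:151086225-151086524 on the plus strand, that of ACAP3 at chr1:1307881-1308180 on the minus strand and that of GBF1 at chr10:102245282-102245581 on the plus strand.
IQSEC1: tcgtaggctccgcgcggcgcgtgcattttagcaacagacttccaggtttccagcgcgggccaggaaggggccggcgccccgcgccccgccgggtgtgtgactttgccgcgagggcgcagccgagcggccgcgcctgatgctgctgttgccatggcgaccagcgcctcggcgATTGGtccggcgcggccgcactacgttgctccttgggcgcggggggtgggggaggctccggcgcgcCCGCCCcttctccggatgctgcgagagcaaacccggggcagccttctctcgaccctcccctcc
AGAP3: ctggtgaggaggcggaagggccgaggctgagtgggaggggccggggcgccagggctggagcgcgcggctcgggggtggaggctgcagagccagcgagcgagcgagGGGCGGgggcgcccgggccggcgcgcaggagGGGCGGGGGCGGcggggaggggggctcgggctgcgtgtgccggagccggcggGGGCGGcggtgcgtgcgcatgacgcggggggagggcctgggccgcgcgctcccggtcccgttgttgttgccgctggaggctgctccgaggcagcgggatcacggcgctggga
ACAP3: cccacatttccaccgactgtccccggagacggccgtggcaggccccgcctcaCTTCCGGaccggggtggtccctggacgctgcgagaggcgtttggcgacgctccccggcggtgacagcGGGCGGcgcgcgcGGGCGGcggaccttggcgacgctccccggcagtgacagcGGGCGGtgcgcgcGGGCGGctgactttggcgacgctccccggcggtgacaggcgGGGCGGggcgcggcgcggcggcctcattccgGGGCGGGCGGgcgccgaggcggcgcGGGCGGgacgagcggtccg
GBF1: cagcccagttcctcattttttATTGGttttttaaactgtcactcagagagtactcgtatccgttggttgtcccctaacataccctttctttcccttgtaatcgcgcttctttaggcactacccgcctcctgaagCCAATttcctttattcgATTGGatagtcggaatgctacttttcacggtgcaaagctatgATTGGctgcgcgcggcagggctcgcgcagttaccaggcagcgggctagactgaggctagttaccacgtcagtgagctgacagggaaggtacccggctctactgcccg

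The promoter of ACAP3 held 8 matches to the GC box, 2 of which overlap, and 1 to the ETS core, with 79.7% G and C. AGAP3 held 4 matches to the GC box and 80.7% G and C, and IQSEC1 held 1 match to the GC box and 1 to the CCAAT box with 73% G and C. GBF1 held 4 matches to the CCAAT box, none to the GC box, and 51.3% G and C, below the median of 58.7% over all 35116 promoters of this length. Matches to the GC box were in 45.0% of all promoters and in 34 of the 52 promoters listed for the Arf regulators, and matches to the CCAAT box in 34.6% and in 16 of 52. For the other motifs, the shares of all promoters were 7.26% for the E-box, 11.5% for the TATA box, 10.3% for the ETS core and 1.77% for the octamer, against 7, 0, 3 and 0 of the 52. A match describes the letters in this window and is not shown to be a binding site. The 10 genes without an entry were ACAP1, AGAP1, AGAP7, AGAP9, ARAP2, ARFGAP1, ARFGEF1, ASAP1, CYTH4 and PSD3.

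Counted over the expressed genes, more of the Arf regulators were higher than lower with JQ1. In SU-DHL-5, 17 of 25 genes had higher values in each JQ1 library than in either DMSO library and 7 had lower ones, against 42.3% and 38% of all 9094 expressed genes. In Toledo, 13 of 25 genes were higher and 6 lower, against 29.7% and 42.9% of all 9380 expressed genes, and 6 overlapped. A ratio below 0.5 was found for ACAP1 in SU-DHL-5 (1 gene) and for ACAP1, IQSEC1 and AGAP3 in Toledo (3 genes), against 5.54% and 6.81% of all expressed genes. A ratio above 2 was found for ACAP3 in SU-DHL-5 (1 gene), against 1.68% of all, and for 0 in Toledo, against 1.7% of all. Genes under the limit of a line, such as IQSEC1, AGAP3 and AGAP5 in SU-DHL-5, are not in these counts. AGAP3 passed the limit in Toledo only through its DMSO sample (1.89 against 0.887 RPKM with JQ1). AGAP4, counted as higher, passed it in SU-DHL-5 only through its JQ1 sample (1.27 against 0.882 RPKM with DMSO). For both, the limit and the ratio rest on the same high sample. The AGAP3 log2 ratio in Toledo was -0.95 when scaled by the median ratio and -0.91 with library 1 alone. Over the 25 expressed genes of each line, SU-DHL-5 had a median log2 ratio of 0.20 and Toledo one of 0.13, beside 0.02 and -0.06 over all expressed genes. The DMSO libraries of Toledo differed by gene length, as described above, and the part of this in the Toledo median was not tested.

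Split by role, 6 of the 7 expressed GEFs were higher in SU-DHL-5 and PSD4 was lower, with a median log2 ratio of 0.38. In Toledo, 4 of 8 GEFs were higher (GBF1 and 3 cytohesins) and 2 lower (IQSEC1 and PSD4), with a median of 0.14 that ranged from -0.02 to 0.29 over the other settings tried. The low end came from library 2 alone and the high end from library 1 alone. Of the expressed GAPs, 11 of 18 were higher and 6 lower in SU-DHL-5, and 9 of 17 were higher and 4 lower in Toledo, with a median of 0.13 in each line. The GAP median in Toledo was 0.19 with library 1 alone and 0.09 with library 2 alone. In SU-DHL-5 the ratios of expressed genes ran from -0.28 to 0.51 for GEFs and from -1.77 to 1.06 for GAPs. These ranges leave out genes under the limit there, among them the GEFs IQSEC1 (-1.79) and CYTH4 (-1.57) and the GAPs AGAP3 (-1.53) and AGAP5 (1.12). The difference between the classes was not tested.

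**Figure D3:**
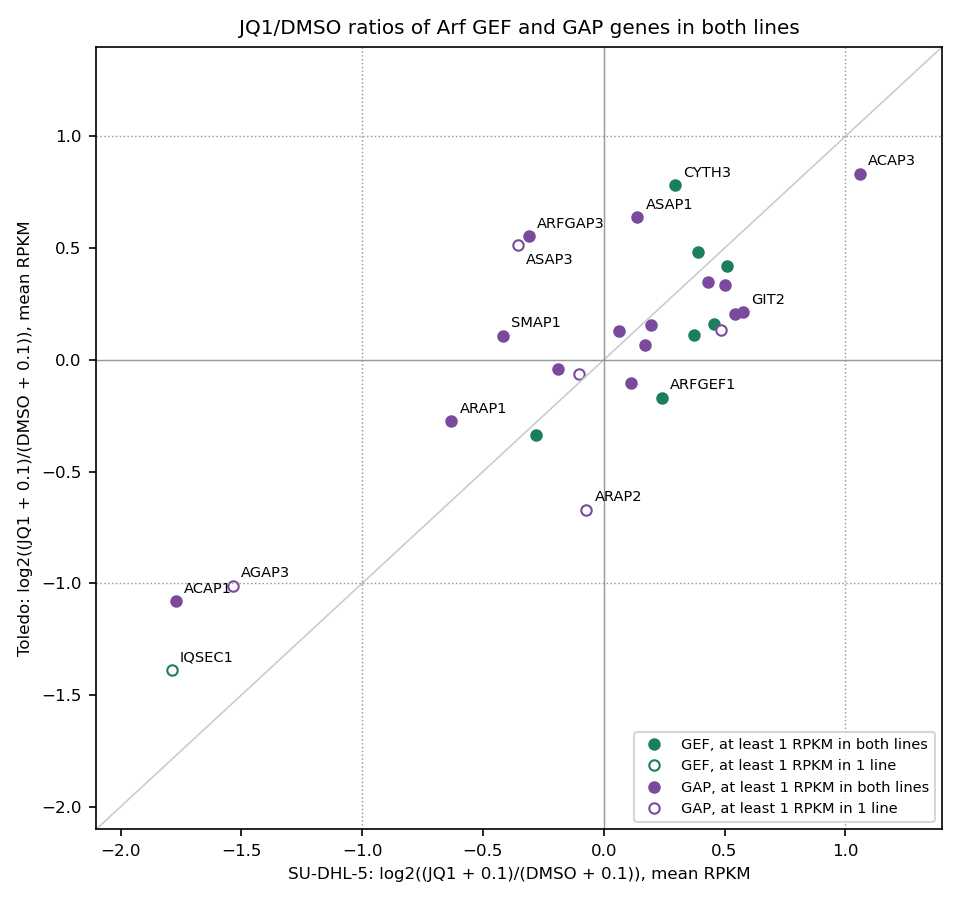
Log2((JQ1 + 0.1)/(DMSO + 0.1)) of mean RPKM in SU-DHL-5 (x axis) and in Toledo (y axis) for the genes expressed in at least 1 line, GEFs in green and GAPs in purple, filled where expressed in both lines. Dotted lines mark 2-fold and the diagonal marks equal ratios. ACAP1, IQSEC1 and AGAP3 lie at the lower left, ACAP3 at the upper right, and ARFGAP3 and SMAP1 at the upper left.

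In both lines together, 11 of the 22 genes expressed in both were higher with JQ1 in every library, against 24.4% of all 8495 such genes, and 3 were lower in every library (ACAP1, ARAP1 and PSD4), against 28.9% of all. The 11 genes were GBF1, CYTH1, CYTH2 and CYTH3 among GEFs and ACAP3, AGFG2, ARFGAP1, ASAP1, GIT1, GIT2 and SMAP2 among GAPs. Spearman's rho between the lines' log2 ratios was 0.60 across the 22 genes and 0.76 across all 8495 genes. This describes genes that share the same libraries and is not a test.

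The lines also differed from each other without JQ1. Of the 27 genes with a mean of at least 1 RPKM over both DMSO samples, 5 were more than 2-fold higher in Toledo, against 14.9% of all 9630 genes that passed this limit, and 6 were less than 0.5 of their SU-DHL-5 level, against 13.6% of all. The 5 were IQSEC1, CYTH3 and CYTH1 among GEFs and GIT1 and AGAP3 among GAPs. The 6 were all GAPs, namely ASAP3, ACAP1, ARFGAP3, ARAP2, SMAP1 and SMAP2. Some of these genes passed the limit only through the line where they were high. They were ASAP3, ARAP2 (1.48 RPKM in SU-DHL-5 and 0.529 RPKM in Toledo) and AGAP3 (0.697 and 1.89 RPKM). For them the limit and the difference rest on the same high sample. ASAP3 was furthest apart, at 3.40 RPKM in SU-DHL-5 and 0.105 RPKM in Toledo. These levels are 32.3-fold apart, with a counting interval of the log2 read ratio from -5.84 to -4.26, and the log2 difference with 0.1 RPKM added, which understates it, was -4.09. ACAP1 followed at 19.5 and 4.66 RPKM (-2.04). IQSEC1 was furthest the other way, at 1.39 and 5.20 RPKM (1.84), ahead of GIT1 at 10.6 and 28.9 RPKM (1.44).

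Below the limit of 1 RPKM, PSD3 and ASAP2 were at 0 reads in all 4 SU-DHL-5 libraries. Toledo had 378 reads of PSD3 with DMSO and 355 with JQ1, and 101 and 47 reads of ASAP2. Against a floor of 3 reads over both DMSO libraries of SU-DHL-5, this made PSD3 at least 121-fold and ASAP2 at least 32.4-fold higher in Toledo. By library, the long gene PSD3 stood in Toledo at 0.725 and 0.977 RPKM with DMSO and at 0.929 and 0.734 RPKM with JQ1. With JQ1, the log2 difference between the lines was 2.24 for IQSEC1. It was smaller in size than with DMSO for ARFGAP3 (-1.34 to -0.48), ACAP1 (-2.04 to -1.35) and SMAP1 (-1.09 to -0.57). With 1 sample for each line and treatment, a difference between lines cannot be told apart from one between cultures.

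**Figure D4:**
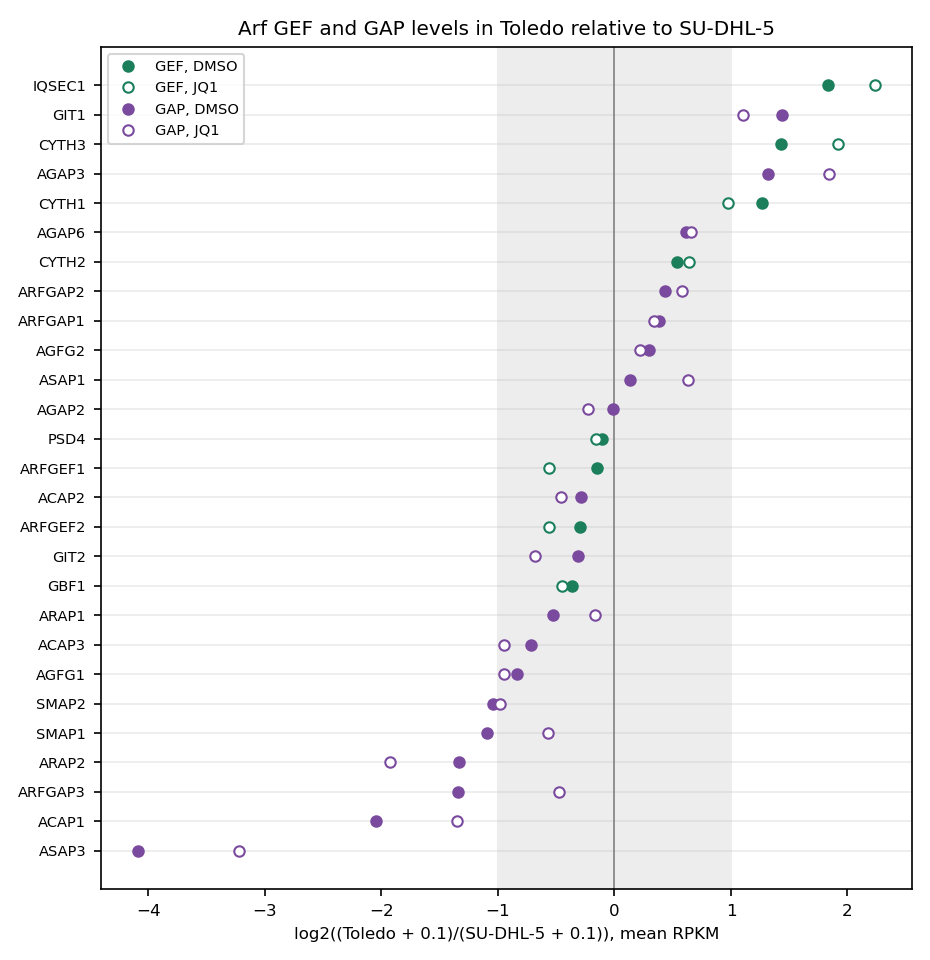
Log2((Toledo + 0.1)/(SU-DHL-5 + 0.1)) of mean RPKM for the 27 genes with at least 1 RPKM over the DMSO samples, filled points with DMSO and open points with JQ1, GEFs in green and GAPs in purple. The gray band marks differences within 2-fold. IQSEC1 lies furthest to the right and ASAP3 furthest to the left.

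Summed over their genes, GAP levels exceeded GEF levels in every library. The GEFs summed to 56.1 and 51.8 RPKM with DMSO and to 63.8 and 65.7 RPKM with JQ1 in SU-DHL-5, and to 62.2 and 67.9 RPKM and 73.0 and 70.3 RPKM in Toledo. The GAPs summed to 219.6 and 214 RPKM with DMSO and to 209 and 208 RPKM with JQ1 in SU-DHL-5, and to 167 and 176 RPKM and 188 and 185 RPKM in Toledo. The ratio of the GAP sum to the GEF sum was 3.92 and 4.14 in the DMSO libraries of SU-DHL-5 and 3.27 and 3.16 in its JQ1 libraries, without overlap. In Toledo it was 2.68 and 2.59 with DMSO and 2.58 and 2.63 with JQ1, and the libraries overlapped. Families did not move alike within these sums in SU-DHL-5. The ARFGEF and GBF1 sum went from 28.996 to 38.6 RPKM, the ACAP sum from 29.5 to 21.1 RPKM and the GIT sum from 20.9 to 30.8 RPKM. ACAP1 alone went from 19.5 to 5.64 RPKM, while the mean sum of all GAPs went from 217 to 208 RPKM.

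**Figure D5:**
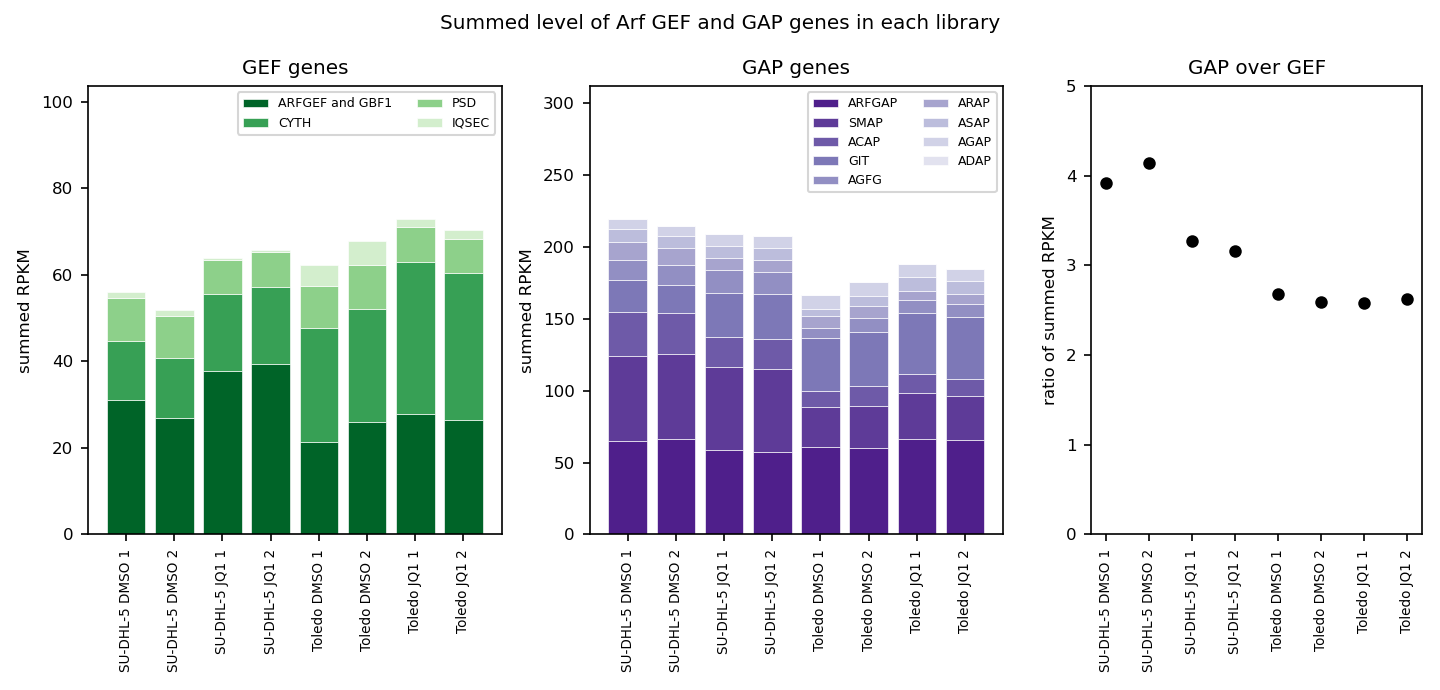
Summed RPKM of the GEF genes (left) and GAP genes (middle) in each of the 8 libraries, stacked by family from 0, and the ratio of the GAP sum to the GEF sum (right). The ratio is lower in the JQ1 than in the DMSO libraries of SU-DHL-5 and lies between 2.58 and 2.68 in the 4 libraries of Toledo.

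In the transcript table, 62 of the 219 transcripts, from 26 genes, reached 1 RPKM in a sample mean, and 67 were listed at 0 throughout. IQSEC1 was carried by 1 transcript above this level (IQSEC1_1), at 4.86 and 5.65 RPKM with DMSO and 1.98 and 1.91 RPKM with JQ1 in Toledo. ACAP1 had 2, and in SU-DHL-5 both were lower with JQ1, ACAP1_1 at 16.9 and 15.3 RPKM against 4.64 and 5.70 RPKM and ACAP1_2 at 3.81 and 3.33 RPKM against 0.993 and 0 RPKM. In Toledo ACAP1_1 was lower with JQ1 (4.49 and 4.32 RPKM against 1.84 and 1.21 RPKM) and the minor ACAP1_2 was higher, at 0.533 and 0 RPKM against 0.630 and 0.660 RPKM. AGAP3_3 stood at 1.17 and 1.72 RPKM with DMSO and at 0.0890 and 0.419 RPKM with JQ1 in Toledo, while AGAP3_2, with 1.25 and 2.12 RPKM against 1.30 and 0.646 RPKM, overlapped. Of the 3 transcripts of ACAP3 above 1 RPKM, ACAP3_3 was higher with JQ1 without overlap in both lines. It had 1.66 and 1.94 RPKM against 3.16 and 2.26 RPKM in SU-DHL-5, and 0.752 and 0.573 RPKM against 2.22 and 2.54 RPKM in Toledo. ACAP3_1 and ACAP3_2 varied widely between the libraries of a sample, as ACAP3_1 did with 0 and 0.812 RPKM in the DMSO libraries of SU-DHL-5. The gene value is therefore the firmer measure.

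For ARFGAP3 in SU-DHL-5, the minor transcript ARFGAP3_2 stood at 3.37 and 3.47 RPKM with DMSO and at 0.516 and 0 RPKM with JQ1. The major transcript ARFGAP3_3 overlapped there, at 19.1 and 23.6 RPKM against 20.5 and 18.4 RPKM, and in Toledo it was at 6.17 and 6.80 RPKM against 10.2 and 11.0 RPKM. ARFGAP3_1 was also lower in SU-DHL-5, at 4.72 and 4.77 RPKM against 3.62 and 4.30 RPKM. In Toledo ARFGAP3_1 overlapped (4.49 and 5.15 RPKM against 7.21 and 4.99 RPKM). SMAP2 showed transcripts on opposite sides in SU-DHL-5: SMAP2_1 was at 45.7 and 43.6 RPKM with DMSO and at 50.7 and 50.3 RPKM with JQ1, and the shorter SMAP2_5 at 5.72 and 5.70 RPKM and at 3.36 and 1.80 RPKM. In Toledo, SMAP2_5 overlapped (3.53 and 2.74 RPKM against 2.41 and 3.84 RPKM). Values of transcripts of 1 gene are estimates that divide shared reads, and no error of that division was available here.

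For the substrates of these regulators, 3 of 5 were higher and 0 lower with JQ1 in SU-DHL-5, and 2 were higher and 1 lower in Toledo. All 5 Arf GTPases, ARF1, ARF3, ARF4, ARF5 and ARF6, were expressed in both lines, with log2 ratios from -0.02 to 0.37 in SU-DHL-5 (-0.13 to 0.19 in Toledo), and ARF4 was higher without overlap in both (51.2 and 52.1 RPKM against 65.8 and 68.2 RPKM in SU-DHL-5, log2 ratio 0.37, and 0.19 in Toledo). Of the 8 expressed COPI coat genes, 6 were higher and 2 lower in SU-DHL-5, and 4 were higher and 1 lower in Toledo, with medians of 0.15 and 0.10. Beside these and the next counts stand the shares over all expressed genes, 42.3% higher and 38% lower in SU-DHL-5 and 29.7% higher and 42.9% lower in Toledo. Of the 10 expressed genes of the AP-1 and GGA clathrin adaptors, 5 were higher and 3 lower in SU-DHL-5 and 4 higher and 2 lower in Toledo. AP1G2, a gamma subunit of AP-1, was past 2-fold in Toledo, at 4.69 and 4.47 RPKM with DMSO and 9.53 and 10.6 RPKM with JQ1 (log2 ratio 1.12). Among Arf-like and Sar GTPases, 8 of 19 expressed genes were higher and 7 lower in SU-DHL-5, near the shares of all genes, and 7 of 20 were higher and 7 lower in Toledo. ARL11 (5.21 and 5.82 RPKM against 1.43 and 1.73 RPKM) and ARL15 (7.73 and 9.02 RPKM against 4.00 and 3.96 RPKM) lay below 0.5 in SU-DHL-5.

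Among 19 listed effectors and partners, 11 of 16 expressed genes were higher and 4 lower in SU-DHL-5, and 4 of 14 were higher and 4 lower in Toledo, against 42.3% and 38% and 29.7% and 42.9% of all expressed genes. CYTIP, a binding partner of cytohesins in leukocytes, was at 14.7 and 19.5 RPKM with DMSO and at 4.11 and 3.87 RPKM with JQ1 in SU-DHL-5 (log2 ratio -2.07), and at 9.57 and 10.8 RPKM and 6.15 and 6.03 RPKM in Toledo (-0.73). It thus lay opposite to CYTH1, CYTH2 and CYTH3, and on the side of CYTH4. ARHGEF6, or alpha-PIX, a partner of the GIT proteins, was at 16.5 and 15.4 RPKM against 5.45 and 5.24 RPKM in SU-DHL-5 (-1.56) and at 13.97 and 16.0 RPKM against 3.02 and 3.06 RPKM in Toledo (-2.26), opposite to GIT1 and GIT2. Its relative ARHGEF7, or beta-PIX, had log2 ratios of 0.32 and 0.07.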

How the data were processed

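RNA of 4 samples, SU-DHL-5 and Toledo cells with DMSO or JQ1, had been made into libraries with a stranded mRNA kit. Per the file headers, the authors deposited tables of RPKM for genes and for transcripts, normalized to feature length and to the mapped reads of each of 8 libraries. The submitters' processing notes name CASAVA 2.0 and GRCh38. The aligner, the annotation and the use of strand in counting are not given in the sources used here. Positions in the tables overlapped GRCh38.p14 for 99.9% of 32650 shared symbols and for 42 of the 43 genes by symbol, AGAP7 being the exception.

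The 2 libraries of a sample were averaged. Ratios are log2((JQ1 + 0.1)/(DMSO + 0.1)), and a gene counted as expressed at a mean of at least 1 RPKM. Mapped reads were recovered from single-exon genes as the totals that made RPKM times length whole, which gave whole reads for 14942 of 14944 genes with a value. The depth per library, from 14617583 to 17679831 reads, sets the 95% exact binomial intervals of the read ratio, which take no pseudocount and cover counting error only. No count model was fitted. Read recovery and 2-fold calls were run on simulated counts whose libraries differed only by depth, treatment and counting error. That simulation cannot speak to other spread between libraries or to the length effect in Toledo.

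Genes given per library were those past 2-fold with JQ1, those at least 0.5 (log2) apart without overlap in both lines, the 3 GEFs and GAPs of highest DMSO level, those over 4-fold apart between lines and those of opposite direction. CYTH3, CYTH4, ACAP2, ASAP1, the transcripts and the other pathway genes named singly were chosen after their values were seen. ARFGEF2, ARAP1, GIT2, AGFG1 and PSD3 were also outside these rules, and their values per library are given for Toledo only. Genes, lists and motifs were chosen with earlier results of these data known. Alternatives varied the pseudocount, the filter, the scaling, the table, the AGAP copies and the library used. Software was matplotlib 3.10.9, scipy 1.17.1, pandas 2.3.3 and numpy 2.4.6 under Python 3.11.15.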

Additional observations from a re-analysis of the deposited data

Results flagged for a closer look

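ARFGAP3, SMAP1 and AGAP2 were set apart because all JQ1 libraries lay on one side of the DMSO libraries in SU-DHL-5 and on the other side in Toledo. With 1 sample per condition, these differences between the lines were not tested. The log2 JQ1/DMSO ratio in Toledo minus that in SU-DHL-5 was 0.87 for ARFGAP3 (0.55 against -0.31), 0.53 for SMAP1 (0.11 against -0.42) and -0.22 for AGAP2 (-0.10 against 0.11). For ARFGAP3 in SU-DHL-5 the ratio was -0.48 with library 2 alone and -0.13 with library 1 alone, and in Toledo 0.41 and 0.70.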

How the results depend on the processing

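No paired analysis was possible because there is only 1 sample for each line and treatment. Of 101 values of the 13 counts and medians under other settings, 90 stayed within 1.5 times the count or within the spread between libraries, 11 moved and 0 reversed. A change of sign within that spread was not counted as a reversal. The GEF median in Toledo was 0.14 in the main setting and -0.02 with library 2 alone. Of 192 values for single genes, 25 moved and 0 reversed a difference past the limits. A filter of 5 RPKM left 6 of 11 genes over 2-fold apart between the lines, 0 above 2 in SU-DHL-5, 0 below 0.5 in Toledo and 2 lower in Toledo. With a pseudocount of 1 RPKM, 0 genes were above 2 in SU-DHL-5 (ACAP3 at a log2 ratio of 0.79) and 1 was below 0.5 in Toledo (IQSEC1 at -1.08, with ACAP1 at -0.85 and AGAP3 at -0.61). Without a filter, 2 genes were above 2, 4 below 0.5 and 11 lower in SU-DHL-5, and the GEF median there was 0.24. With library 1 alone that median was 0.26, beside 0.38 from the mean. Library 1 alone and scaling by the median ratio each left 2 genes below 0.5 in Toledo, where AGAP3 no longer passed. The filter changes which genes are counted, and the cause of the other changes was not tested. Reads of genes under 1 RPKM are few, which limits their ratios.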
